A study of Rattus norvegicus with 64 samples.

Results

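Genes that mark the birth of neurons in the adult brain, together with genes of cell proliferation, were followed across the hippocampus and cortex of rats given doxorubicin or PBS. The set has 8 members chosen by symbol: Dcx, Sox11, Neurod1, Eomes, Igfbpl1, Calb2, Mki67 and Ccnd1. Of these, 7 had a row in the count tables, which hold 32552 gene rows. Eomes, the transcription factor of intermediate neuronal progenitors also called Tbr2, could not be matched to a row by symbol and was not analysed here. The rule names the genes by their role and uses no measured value, but it was set with earlier results of these data known.

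Bulk RNA-seq was made from 32 rats, each giving a hippocampal and a cortical library, 64 libraries in all. The rats carried ApoE3 or ApoE4, forms of the lipid carrier apolipoprotein E. Doxorubicin, an anthracycline used in chemotherapy, was given at 2 mg/kg per week for 4 weeks from 5 weeks of age, and brains were collected 5 to 6 weeks after dosing ended. The 8 groups were ApoE4 doxorubicin, ApoE4 PBS, ApoE3 doxorubicin and ApoE3 PBS in each region, with 8 libraries (4 male, 4 female) per group. The dose and timing are those of the doxorubicin rats, and neither how the ApoE alleles were introduced nor the age of the PBS rats at collection was given in the sources used here. The numbers given to the rats follow genotype, sex and treatment block by block, so any handling that followed the numbering cannot be told apart from the groups.

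New granule neurons arise throughout life in the subgranular zone of the dentate gyrus, where radial stem cells give rise to dividing progenitors, then to neuroblasts and immature neurons that integrate into the granule layer. Progenitors express Neurod1, a basic helix-loop-helix factor that drives granule cell differentiation, and Sox11, an SRY-box factor of early neurons. Neuroblasts and immature neurons carry Dcx, a microtubule-binding protein needed for migration, Igfbpl1, an insulin-like growth factor binding protein-like gene used as a neuroblast marker, and Calb2, which encodes the calcium-binding protein calretinin. Mki67 encodes Ki-67, a nuclear protein of cycling cells, and Ccnd1 encodes cyclin D1, which with Cdk4 or Cdk6 drives entry into S phase. Several of these genes are also used elsewhere in the brain. Calretinin marks a class of cortical interneurons and thalamic and habenular neurons, Neurod1 is strongly expressed in cerebellar granule cells, and cyclin D1 is found in glia and endothelium.

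The stretch of 250 bases before the start site, from RefSeq on assembly GRCr8 and written in the direction of the gene, is shown for 3 members of different kinds. They are Mki67, the marker of cycling cells, Dcx, the marker of immature neurons, and Igfbpl1, a neuroblast marker that varied here with genes of ciliated ependymal cells. Capitals mark the letters searched, on either strand. They are CCAAT, the promoter element of that name; TTTGAA, the cell cycle homology region element; GTTGCC, a piece of the X-box bound by RFX factors; TATAAA, the element that binds TATA-binding protein; and CAGATG, an E-box bound by proneural factors.
Mki67 (chr1:199952594-199952843, minus strand): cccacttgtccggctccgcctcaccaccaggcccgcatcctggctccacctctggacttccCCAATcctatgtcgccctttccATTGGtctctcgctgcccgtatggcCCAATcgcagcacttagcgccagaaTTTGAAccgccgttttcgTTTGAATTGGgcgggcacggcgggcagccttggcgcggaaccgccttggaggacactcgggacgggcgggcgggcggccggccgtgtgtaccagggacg
Dcx (chrX:112304162-112304411, minus strand): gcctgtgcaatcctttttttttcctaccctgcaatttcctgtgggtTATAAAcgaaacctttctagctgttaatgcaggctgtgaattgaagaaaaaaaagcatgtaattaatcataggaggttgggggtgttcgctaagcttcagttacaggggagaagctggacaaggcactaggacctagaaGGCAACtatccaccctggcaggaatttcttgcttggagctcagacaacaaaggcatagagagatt
Igfbpl1 (chr5:64887462-64887711, minus strand): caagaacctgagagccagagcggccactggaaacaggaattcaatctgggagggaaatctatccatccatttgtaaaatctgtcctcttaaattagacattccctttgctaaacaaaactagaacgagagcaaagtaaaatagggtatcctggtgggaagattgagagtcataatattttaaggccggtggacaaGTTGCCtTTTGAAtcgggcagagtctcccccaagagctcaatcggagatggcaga
Positions count from the start site, and each is that of the first letter. The Mki67 stretch held CCAAT in 4 places, at -189, -167, -142 and -94, and TTTGAA in 2, at -117 and -99. The copy of TTTGAA at -99 shares its last letter with the reversed CCAAT at -94. The Igfbpl1 stretch held GTTGCC at -55 and TTTGAA at -48, and the Dcx stretch held GTTGCC on the opposite strand at -65 and TATAAA at -204. Among 33469 rat promoter windows of the same length, 34.0% held CCAAT, 16.2% TTTGAA, 9.89% GTTGCC, 12.9% TATAAA and 14.0% CAGATG. A match in such a window is a description of its letters and not a binding site. A promoter window was found for 6 of the 8 members.

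Library totals, spike-ins included, were between 10.8M and 20.4M counts, with a median of 14.5M. Levels are given as counts-per-million (CPM) values, relative to the total of a library's gene rows with spike-ins left out. Several libraries stood apart by genes of tissue that lies next to the dissected region. Choroid plexus genes were at least 3 log2 units above the region's median in 7 hippocampal libraries (1 or 2 per group) and in 3 cortical ones. Medial habenula genes were at least 2 log2 units above it in 5 hippocampal libraries and 1 cortical library, and cerebellar granule cell genes in 1 hippocampal and 1 cortical library. These 14 libraries, 10 hippocampal and 4 cortical, were left out in an alternative fit chosen after seeing the data. Prox1 and C1ql2, genes of dentate granule cells, were higher in hippocampus than in cortex in both genotypes. The differences were 2.43 and 4.42 log2 units in ApoE4 rats and 2.46 and 3.87 in ApoE3 rats (edgeR adjusted p between 1.87e-15 and 1.29e-13). Both belong to a list of mature granule cell genes, of which 12 were tested in ApoE3 PBS rats. There 7 were higher in hippocampus, all 7 passing, and 5 were lower, 1 of them passing.

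Doxorubicin in the hippocampus addresses whether the markers of dentate neurogenesis differ 5 to 6 weeks after chemotherapy. No member passed the test in either genotype, and the 95% interval of every member's change included 0. For Dcx, 3 of 8 doxorubicin libraries lay below the PBS median in ApoE4 rats and 7 of 8 in ApoE3 rats. Among all genes, 0% of 14873 in ApoE4 hippocampus and 0% of 14899 in ApoE3 hippocampus passed an adjusted p of 0.05 by edgeR's quasi-likelihood test with Benjamini-Hochberg adjustment, while the unadjusted p was below 0.05 for 1098 genes in ApoE4 and 1530 in ApoE3. With DESeq2 1 gene passed in ApoE4 and 160 in ApoE3, no member among them. The authors' deposited tables put 0.00664% of genes in ApoE4 and 0.991% in ApoE3 under an adjusted p of 0.05, no member among them either. Fewer cells of a type and less RNA per cell cannot be told apart in bulk tissue, here and below.

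Neurod1, the progenitor factor, ranged over 23.6 to 44.4 CPM (median 27.8) in ApoE4 doxorubicin hippocampi and 22.0 to 34.4 CPM (median 30.3) in ApoE4 PBS hippocampi. In ApoE3 rats it ranged over 25.5 to 35.4 CPM (median 30.3) after doxorubicin and 25.6 to 50.1 CPM (median 30.5) after PBS. The groups lay over each other in both genotypes, and the log2 changes by edgeR were 0.037 (SE 0.12, 95% interval -0.22 to 0.30, adjusted p = 0.957) in ApoE4 and -0.051 (SE 0.11, 95% interval -0.29 to 0.19, adjusted p = 0.924) in ApoE3. Sox11, a factor of early neurons, was low: 3.14 to 4.55 CPM (median 3.68) with doxorubicin against 2.66 to 4.67 CPM (median 3.84) with PBS in ApoE4 hippocampus. In ApoE3 hippocampus Sox11 ranged over 3.71 to 5.52 CPM (median 4.69) with doxorubicin and 3.91 to 6.57 CPM (median 4.82) with PBS. Doxorubicin and PBS libraries overlapped over most of their range, with edgeR log2 changes of 0.026 (SE 0.12, 95% interval -0.23 to 0.28, adjusted p = 0.972) and -0.051 (SE 0.11, 95% interval -0.28 to 0.17, adjusted p = 0.916) for ApoE4 and ApoE3.

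Dcx, the marker of neuroblasts and immature neurons, ranged over 34.6 to 48.5 CPM (median 39.2) in ApoE4 doxorubicin hippocampi and 34.9 to 41.8 CPM (median 37.8) in ApoE4 PBS hippocampi. In ApoE3 hippocampus it ranged over 36.4 to 49.3 CPM (median 40.2) with doxorubicin and 38.3 to 48.9 CPM (median 44.2) with PBS. The ApoE3 doxorubicin libraries were mostly at the low end of the PBS range, with 1 of the 8 above the PBS median, whereas 5 of 8 ApoE4 doxorubicin libraries were above theirs. The edgeR log2 changes were 0.062 (SE 0.06, 95% interval -0.06 to 0.19, adjusted p = 0.815) in ApoE4 and -0.10 (SE 0.07, 95% interval -0.25 to 0.04, adjusted p = 0.64) in ApoE3. The lower bounds of the intervals put a fall of Dcx across the hippocampus at no more than 0.06 log2 units in ApoE4 and 0.25 in ApoE3 at the stated confidence of 95%. These bounds are for Dcx RNA of the whole hippocampus, and bulk tissue gives none for dentate immature neurons alone. By sex, the doxorubicin minus PBS difference of mean log2 CPM was 0.13 in ApoE4 females and -0.0125 in ApoE4 males, and -0.13 in ApoE3 females and -0.11 in ApoE3 males (4 libraries each).

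Igfbpl1, the other neuroblast marker, was the member that varied most between libraries, with 0.988 to 3.82 CPM (median 1.92) in ApoE4 doxorubicin hippocampi and 0.780 to 12.6 CPM (median 1.36) in ApoE4 PBS hippocampi. The 2 highest ApoE4 PBS libraries, of rats 7 and 26 with 12.6 and 8.22 CPM, stood far above the other 6, which reached at most 1.72 CPM. In ApoE3 hippocampus it ranged over 1.06 to 5.89 CPM (median 2.17) with doxorubicin and 1.07 to 3.89 CPM (median 1.42) with PBS, the highest being rats 65 and 51 of the doxorubicin group. The edgeR log2 changes were -0.81 (SE 0.57, 95% interval -2.02 to 0.40, adjusted p = 0.743) in ApoE4 and 0.64 (SE 0.38, 95% interval -0.17 to 1.44, adjusted p = 0.603) in ApoE3. Without the libraries that stood apart they were 0.48 (SE 0.30, adjusted p = 0.677) in ApoE4, the opposite sign, and 0.32 (SE 0.33, adjusted p = 0.921) in ApoE3. Ependymal genes moved the same way: 9 of 9 were lower with doxorubicin in ApoE4 and 9 of 9 were higher in ApoE3, none passing. Their summed level was 24.3 to 42.5 CPM (median 35.0) with doxorubicin and 25.4 to 97.3 CPM (median 35.7) with PBS in ApoE4. In ApoE3 it was 25.3 to 64.4 CPM (median 37.8) with doxorubicin and 23.4 to 45.3 CPM (median 28.5) with PBS, and no gene of the list was at 0 in any library.

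Calb2, which encodes calretinin, ranged over 9.40 to 26.0 CPM (median 13.1) in ApoE4 doxorubicin hippocampi and 7.49 to 36.2 CPM (median 9.83) in ApoE4 PBS hippocampi. In ApoE3 it ranged over 6.65 to 28.0 CPM (median 12.1) with doxorubicin and 10.5 to 17.1 CPM (median 13.7) with PBS. A single library stood far above the rest in 3 of these 4 groups, and the edgeR log2 changes were 0.20 (SE 0.28, 95% interval -0.38 to 0.79, adjusted p = 0.885) in ApoE4 and -0.043 (SE 0.23, 95% interval -0.52 to 0.43, adjusted p = 0.975) in ApoE3. The highest value of all, 36.2 CPM in rat 26 of the ApoE4 PBS group, came from a library with 74.2 CPM of Chrna3 and 25.0 CPM of Chrnb4, nicotinic receptor subunits of the medial habenula. In ApoE4 rats 7 of 8 doxorubicin libraries lay above the PBS median, and leaving out rat 26 gave a log2 change of 0.60. The part of habenular tissue in the Calb2 values was not tested.

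Mki67, the marker of cycling cells, ranged over 6.14 to 11.7 CPM (median 7.94) in ApoE4 doxorubicin hippocampi and 6.65 to 10.3 CPM (median 9.20) in ApoE4 PBS hippocampi. Among ApoE3 rats it spanned 5.29 to 10.2 CPM (median 8.44) with doxorubicin and 6.53 to 11.1 CPM (median 9.54) with PBS. Doxorubicin libraries lay below the PBS median in 7 of 8 ApoE4 and 6 of 8 ApoE3 rats, but the ranges overlapped throughout. The edgeR log2 changes were -0.13 (SE 0.10, 95% interval -0.34 to 0.08, adjusted p = 0.763) in ApoE4 and -0.13 (SE 0.14, 95% interval -0.43 to 0.18, adjusted p = 0.823) in ApoE3. They were -0.08 (SE 0.13, adjusted p = 0.881) in ApoE4 and -0.35 (SE 0.17, adjusted p = 0.842) in ApoE3 without the libraries that stood apart. The sexes were uneven, with differences of mean log2 CPM of -0.02 in ApoE4 females, -0.24 in ApoE4 males, -0.30 in ApoE3 females and 0.0099 in ApoE3 males. Ccnd1, cyclin D1, varied little: 30.3 to 45.1 CPM (median 36.3) with doxorubicin and 33.8 to 45.1 CPM (median 36.0) with PBS in ApoE4. In ApoE3 it ranged over 31.0 to 36.7 CPM (median 35.6) with doxorubicin and 30.2 to 40.3 CPM (median 35.7) with PBS. Its log2 changes by edgeR were -0.052 (SE 0.08, 95% interval -0.21 to 0.11, adjusted p = 0.894) and -0.022 (SE 0.05, 95% interval -0.14 to 0.09, adjusted p = 0.933) for ApoE4 and ApoE3.

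**Figure D1:**
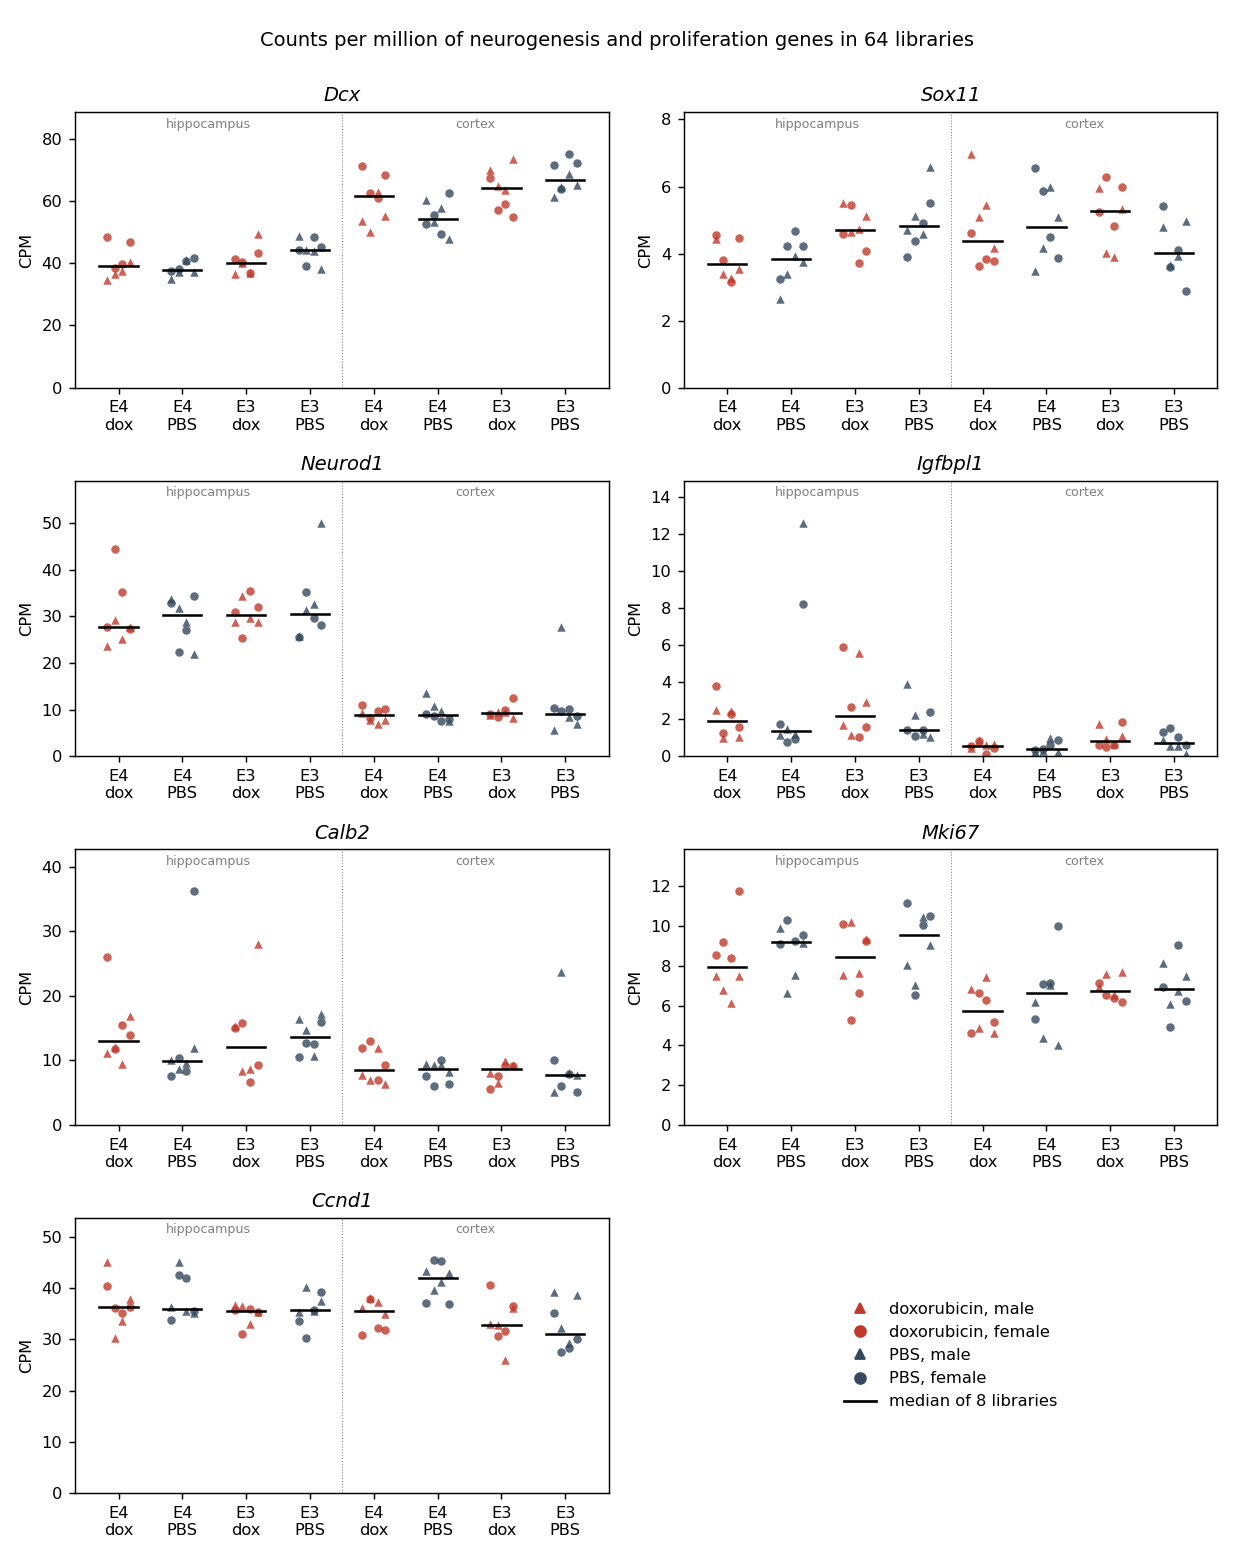
CPM (vertical axes, from 0) of the 7 measured genes in each of 64 libraries, by region, genotype (E4, E3) and treatment (dox for doxorubicin, PBS), with triangles for males, circles for females and a black bar at the median of 8 libraries. Doxorubicin and PBS overlap in every panel and group, while single libraries stand far above their group for Calb2, Neurod1 and Igfbpl1, such as 36.2 CPM of Calb2 in an ApoE4 PBS hippocampus.

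The plot of all 64 libraries shows each group's spread for the 7 genes, and the plot of changes with intervals gives the doxorubicin effects side by side. The wider pathways were looked at with 6 lists: dentate stem cells, other neuroblast genes, mature granule cells, cell cycle genes, partners and inhibitors of cyclin D, and growth signals of the niche. No gene of any list passed in the hippocampus after doxorubicin in either genotype. The median log2 change of the 35 tested cell cycle genes was -0.02 in ApoE4, with 20 of them lower, and that of the 36 tested in ApoE3 was -0.03, with 21 lower. Over all tested genes the median was -0.0067 in ApoE4 and 0.0015 in ApoE3. Of the mature granule cell genes, 11 of 12 were lower in ApoE4 (median -0.17) and 9 of 12 were higher in ApoE3 (median 0.09). Those of smallest p were Npnt (-0.71, adjusted p = 0.641), Prox1 (-0.14, adjusted p = 0.646) and Plk5 (-0.25, adjusted p = 0.646) in ApoE4, none of which passed. Among stem cell genes the smallest p in ApoE3 belonged to Hopx, a homeodomain-only protein of quiescent stem cells (-0.18, edgeR adjusted p = 0.473). For Hopx 8 of 8 doxorubicin libraries lay below the PBS median. The stem cell list is not particular to the dentate gyrus. In ApoE3 PBS rats it summed to a median of 439 CPM in hippocampus and 401 CPM in cortex.

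In the same ApoE3 hippocampi, meningeal fibroblast genes were lower in 8 of 8 cases with a median log2 change of -1.98, 7 of them at an unadjusted p under 0.05 and none passing. Their summed level was 57.1 to 166 CPM (median 65.4) with doxorubicin and 73.6 to 579.5 CPM (median 247) with PBS. In ApoE4 hippocampi choroid plexus genes were lower in 8 of 8 tested cases, with a median of -2.95. Their summed level there was 13.4 to 2364 CPM (median 48.1) with doxorubicin and 15.9 to 12829 CPM (median 130.4) with PBS. In the same ApoE3 comparison 7 of 7 endothelial genes were lower and 7 of 7 tested choroid plexus genes higher, none passing. No meningeal gene of the list was at 0 in any library, and at most 2 of the 9 choroid plexus genes were at 0 in a hippocampal library. The part of these tissues in the members' values was not tested.

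**Figure D2:**
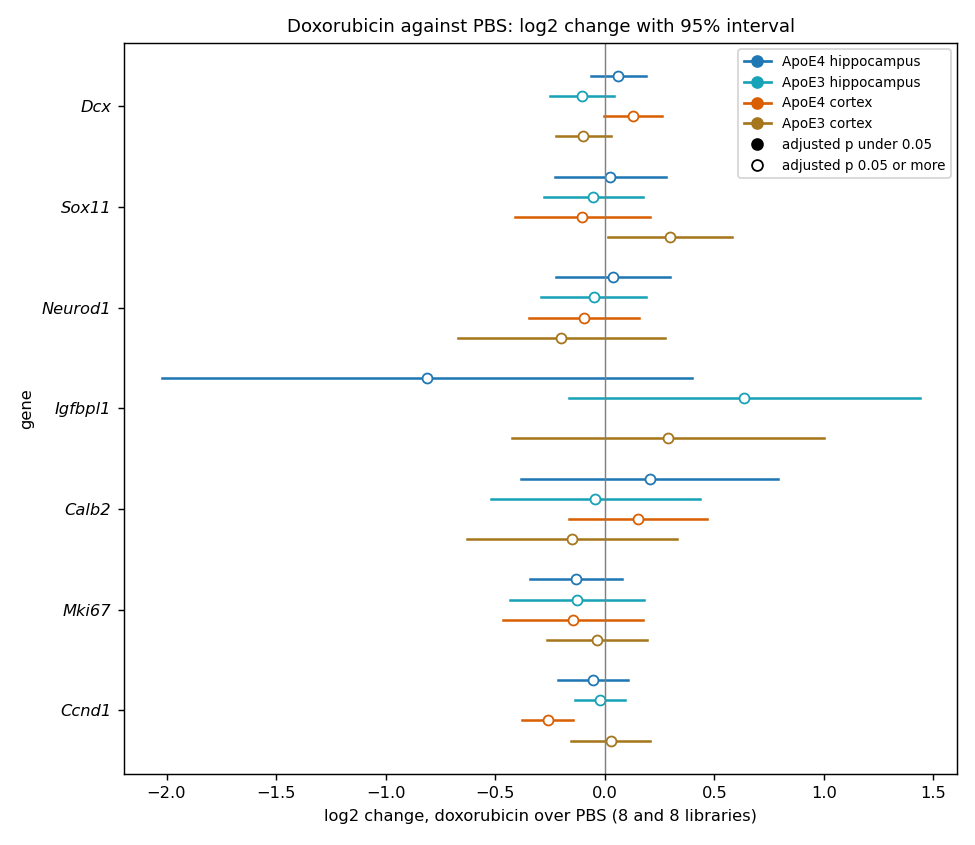
Log2 change of each gene with doxorubicin over PBS (horizontal axis) with its 95% interval from edgeR, for ApoE4 and ApoE3 rats in hippocampus and cortex; open circles mark adjusted p of 0.05 or more. No filled circle appears; Ccnd1 in ApoE4 cortex, at -0.26, is the change with the interval farthest from 0 relative to its width, and Igfbpl1 has the widest intervals.

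In the cortex, which has no dentate gyrus, doxorubicin was set against PBS in the same rats. Ccnd1 was lower in doxorubicin than in PBS cortices of ApoE4 rats in all 8 libraries relative to the PBS median, but it did not pass the test across all genes. It ranged over 31.0 to 38.0 CPM (median 35.5) in ApoE4 doxorubicin cortices and 36.9 to 45.5 CPM (median 42.1) in ApoE4 PBS cortices. The groups overlapped only at their edges, where 3 doxorubicin libraries exceeded the 2 lowest PBS libraries. The edgeR log2 change was -0.26 (SE 0.06, 95% interval -0.38 to -0.14, adjusted p = 0.273), with an unadjusted p of 1.15e-04 that ranked 6 among 14838 genes. None of these genes passed (0%), while 1308 had an unadjusted p below 0.05 and 35 passed with DESeq2. Ccnd1 was not among the 35, since DESeq2 gave it no adjusted p, and its lowest adjusted p with all libraries under the edgeR alternatives was 0.0512, without a filter on low counts. The authors' deposited table gives Ccnd1 a log2 fold change of -0.26 and an adjusted p of 0.0402 in this comparison, 1 of 28 genes under 0.05 there, or 0.409% of the 6843 genes that have an adjusted p in that table. Females and males differed the same way, by -0.31 and -0.19 log2 units (4 libraries each). Leaving out each library in turn kept the log2 change between -0.29 and -0.23, with adjusted p from 0.087 to 0.566.

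In ApoE3 cortex Ccnd1 ranged over 26.0 to 40.6 CPM (median 32.9) with doxorubicin and 27.5 to 39.3 CPM (median 31.2) with PBS. The edgeR log2 change there was 0.026 (SE 0.09, 95% interval -0.15 to 0.21, adjusted p = 0.949), among 14775 genes of which 0% passed. Of these genes 1366 had an unadjusted p below 0.05 and 77 passed with DESeq2. The authors' deposited table puts 0.0569% of its genes that have an adjusted p under 0.05 there, no member among them. The sexes went opposite ways there, by 0.20 log2 units in females and -0.12 in males. The ApoE4 effect minus the ApoE3 effect was -0.29 (SE 0.11, 95% interval -0.51 to -0.07, adjusted p = 0.879), unadjusted p = 0.0108, and did not pass. Several marker lists were lower with doxorubicin in the same ApoE4 cortices, none of their genes passing: 8 of 8 meningeal fibroblast, 7 of 7 endothelial, 6 of 6 tested choroid plexus, 6 of 6 tested cerebellar granule cell, 7 of 8 tested ependymal, 9 of 10 oligodendrocyte precursor, 8 of 9 microglial and 7 of 10 astrocyte genes. Other lists were higher, again with none passing: 10 of 11 tested interneuron, 9 of 10 striatal and 6 of 6 ventricular-zone interneuron precursor genes, with medians of 0.10, 0.22 and 0.15 log2 units. Among the lower lists the median was -1.24 log2 units for choroid plexus and between -0.37 and -0.06 for the rest. Endothelial genes summed to 269 to 437 CPM (median 324) with doxorubicin and 305 to 412 CPM (median 361) with PBS, and none was at 0 in any library. Oligodendrocyte precursor genes summed to 658 to 830.0 CPM (median 744) with doxorubicin and 683 to 861 CPM (median 771) with PBS. Meningeal genes summed to 57.5 to 330.0 CPM (median 126) with doxorubicin and 85.2 to 261 CPM (median 211) with PBS, and microglial genes to 292 to 369 CPM (median 312) with doxorubicin and 301 to 367 CPM (median 329.9) with PBS. Without the libraries that stood apart the Ccnd1 change was -0.28 (SE 0.06, adjusted p = 0.232), and the part of these cell types in it was not tested.

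Dcx in cortex ranged over 50.1 to 71.1 CPM (median 61.7) in ApoE4 doxorubicin rats and 47.7 to 62.7 CPM (median 54.3) in ApoE4 PBS rats. In ApoE3 rats it ranged over 54.8 to 73.6 CPM (median 64.1) with doxorubicin and 61.4 to 75.0 CPM (median 66.9) with PBS. The doxorubicin libraries of ApoE4 leaned above and those of ApoE3 below their PBS libraries, with overlap in both. The edgeR log2 changes were 0.13 (SE 0.06, 95% interval -0.00 to 0.26, adjusted p = 0.571) in ApoE4 and -0.10 (SE 0.06, 95% interval -0.22 to 0.03, adjusted p = 0.622) in ApoE3. The difference between the genotypes' effects, 0.22 (SE 0.09, 95% interval 0.03 to 0.41, adjusted p = 0.879), had an unadjusted p of 0.023 and did not pass. By sex, the doxorubicin minus PBS difference of mean log2 CPM was 0.26 in ApoE4 females and 0.02 in ApoE4 males, and -0.25 in ApoE3 females and 0.06 in ApoE3 males (4 libraries each).

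Sox11 in cortex ranged over 3.62 to 6.96 CPM (median 4.39) with doxorubicin and 3.50 to 6.54 CPM (median 4.79) with PBS in ApoE4. Among ApoE3 rats it spanned 3.91 to 6.27 CPM (median 5.28) with doxorubicin and 2.89 to 5.41 CPM (median 4.02) with PBS, 6 of 8 doxorubicin libraries lying above the PBS median. The edgeR log2 changes were -0.10 (SE 0.15, 95% interval -0.41 to 0.21, adjusted p = 0.887) and 0.30 (SE 0.14, 95% interval 0.01 to 0.58, adjusted p = 0.517) for ApoE4 and ApoE3, the ApoE3 value with an unadjusted p of 0.0414. The ApoE3 change was 0.21 (SE 0.15, adjusted p = 0.791) without the libraries that stood apart.

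Neurod1 in cortex ranged over 6.99 to 10.9 CPM (median 8.77) with doxorubicin and 7.48 to 13.6 CPM (median 8.84) with PBS in ApoE4. In ApoE3 it ranged over 8.12 to 12.4 CPM (median 9.27) with doxorubicin and 5.61 to 27.7 CPM (median 9.16) with PBS. The highest ApoE3 PBS value belonged to rat 41, whose cortical library also held 23.4 CPM of Gabra6, 36.2 CPM of Fat2 and 12.8 CPM of Cbln3, genes of cerebellar granule cells. The edgeR log2 changes were -0.095 (SE 0.12, 95% interval -0.35 to 0.16, adjusted p = 0.864) in ApoE4 and -0.20 (SE 0.23, 95% interval -0.67 to 0.27, adjusted p = 0.819) in ApoE3, and without rat 41 the ApoE3 value was 0.17. Calb2 ranged over 6.38 to 13.0 CPM (median 8.53) with doxorubicin and 6.02 to 10.1 CPM (median 8.70) with PBS in ApoE4. Among ApoE3 rats it spanned 5.55 to 9.93 CPM (median 8.59) with doxorubicin and 5.02 to 23.6 CPM (median 7.74) with PBS, rat 41 again the highest. Its log2 changes by edgeR were 0.15 (SE 0.15, adjusted p = 0.817) and -0.15 (SE 0.23, adjusted p = 0.875) for ApoE4 and ApoE3, the ApoE3 value being 0.18 without rat 41.

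Mki67 in cortex ranged over 4.62 to 7.43 CPM (median 5.72) with doxorubicin and 4.03 to 10.00 CPM (median 6.62) with PBS in ApoE4. In ApoE3 it ranged over 6.17 to 7.67 CPM (median 6.75) with doxorubicin and 4.94 to 9.03 CPM (median 6.85) with PBS. The groups overlapped in both genotypes, with edgeR log2 changes of -0.14 (SE 0.15, 95% interval -0.46 to 0.18, adjusted p = 0.831) in ApoE4 and -0.035 (SE 0.11, 95% interval -0.26 to 0.19, adjusted p = 0.945) in ApoE3. Igfbpl1 was close to the limit of detection in cortex, with 2 to 12 counts per library in ApoE4 doxorubicin rats and 3 to 15 in ApoE4 PBS rats, and it was not tested there. In ApoE3 cortex it had 6 to 26 counts with doxorubicin and 2 to 20 with PBS, and a log2 change of 0.29 (SE 0.34, adjusted p = 0.823) by edgeR.

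No gene of the 6 pathway lists passed after doxorubicin in cortex either. Of the cell cycle genes, 23 of 38 tested were lower in ApoE4 (median -0.05) and 24 of 36 in ApoE3 (median -0.05), against 15 and 12 higher. Cell cycle genes of smallest p were Nusap1, a spindle protein, in ApoE4 (-0.46, adjusted p = 0.549) and Ccna2, cyclin A2, in ApoE3 (-0.41, adjusted p = 0.465). Dentate stem cell genes were lower in 10 of 11 cases in each genotype, with medians of -0.11 in ApoE4 and -0.08 in ApoE3. The lowest p among them belonged to Sox2, the stem cell factor, in ApoE4 (-0.14, adjusted p = 0.461) and to Notch1, the receptor that maintains stem cells, in ApoE3 (0.17, adjusted p = 0.503). The median over all tested genes was -4e-04 in each genotype. In the neuroblast list the smallest p belonged to Ncam1 in ApoE4 (0.09, adjusted p = 0.435) and to Stmn1 in ApoE3 (-0.12, adjusted p = 0.334), neither passing.

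Whether the 2 genotypes or the 2 regions differed in their response was tested directly. The ApoE4 effect minus the ApoE3 effect passed for 0% of 15416 genes in hippocampus and 0% of 15315 in cortex, 1261 and 834 genes having an unadjusted p under 0.05 and DESeq2 calling 6 and 1. For Dcx it was 0.17 (SE 0.09, 95% interval -0.02 to 0.36, adjusted p = 0.66) in hippocampus, close in size to that in cortex. For Mki67 it was -0.0026 (SE 0.19, 95% interval -0.38 to 0.38, adjusted p = 0.999) in hippocampus and -0.12 (SE 0.20, 95% interval -0.52 to 0.28, adjusted p = 0.944) in cortex. For Igfbpl1 in hippocampus it was -1.44 (SE 0.71, 95% interval -2.89 to 0.02, adjusted p = 0.612), and 0.14 (SE 0.44, adjusted p = 0.998) without the libraries that stood apart. Sox11 in cortex had -0.40 (SE 0.21, 95% interval -0.82 to 0.02, adjusted p = 0.879), and Ccnd1 in cortex had the -0.29 given above. The values of Neurod1 and Calb2 in both regions, of Sox11 and Ccnd1 in hippocampus and of Igfbpl1 in cortex lay between -0.14 and 0.32.

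The hippocampal effect minus the cortical effect passed for 0% of 15432 genes in ApoE4 and 0% of 15428 in ApoE3, with 554 and 1235 at an unadjusted p under 0.05. DESeq2 called 0 in ApoE4 and 123 in ApoE3. With the rat as a replicate block, 9 genes passed in ApoE3, none of them a member. Members of smallest p were Ccnd1 in ApoE4, at 0.22 (SE 0.09, 95% interval 0.02 to 0.41, adjusted p = 1), and Sox11 in ApoE3, at -0.36 (SE 0.17, 95% interval -0.71 to -0.00, adjusted p = 0.621). For Dcx the difference was -0.059 (SE 0.09, 95% interval -0.25 to 0.13, adjusted p = 1) in ApoE4 and -0.0086 (SE 0.09, 95% interval -0.20 to 0.18, adjusted p = 0.995) in ApoE3. For Mki67 it was 0.015 (SE 0.19, 95% interval -0.38 to 0.41, adjusted p = 1) in ApoE4 and -0.10 (SE 0.18, 95% interval -0.47 to 0.27, adjusted p = 0.944) in ApoE3. A loss particular to the hippocampus was thus not detected for either gene, within these intervals.

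ApoE4 was then set against ApoE3 in PBS rats. In the cortex, Ccnd1 was higher and Dcx was lower in ApoE4, and both passed the test. For Ccnd1 the 8 ApoE4 libraries all lay above the ApoE3 median, 36.9 to 45.5 CPM (median 42.1) against 27.5 to 39.3 CPM (median 31.2) in ApoE3. For Dcx the 8 ApoE4 libraries all lay below the ApoE3 median, 47.7 to 62.7 CPM (median 54.3) against 61.4 to 75.0 CPM (median 66.9) in ApoE3. The ranges overlapped at their edges in both genes. The edgeR log2 differences were 0.37 (SE 0.08, 95% interval 0.21 to 0.52, adjusted p = 7.19e-04) for Ccnd1 and -0.28 (SE 0.07, 95% interval -0.42 to -0.15, adjusted p = 0.00266) for Dcx. Of 7 members tested 2 passed, against 18.2% of 15315 genes (1475 or 9.63% higher and 1313 or 8.57% lower in ApoE4), so a call in this comparison is common. Scaling by library totals alone made 41.9% of all calls higher in ApoE4, against 52.9% with TMM, and both members still passed.

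Mean log2 CPM of Ccnd1 in PBS cortices was 5.36 in ApoE4 and 4.92 in ApoE3 females, and 5.39 in ApoE4 and 5.11 in ApoE3 males. That of Dcx was 5.78 in ApoE4 and 6.14 in ApoE3 females, and 5.77 in ApoE4 and 6.02 in ApoE3 males. Both genes therefore differed in the same direction in each sex. The ApoE4 PBS cortices of this comparison are the same libraries as the PBS side of the doxorubicin comparison in ApoE4 cortex, where Ccnd1 leaned down and Dcx up. Medians of Ccnd1 were 35.5 CPM in ApoE4 doxorubicin, 42.1 CPM in ApoE4 PBS, 32.9 CPM in ApoE3 doxorubicin and 31.2 CPM in ApoE3 PBS cortices. Of the 4 cortical groups the ApoE4 PBS group was thus the highest for Ccnd1, and the other 3 overlapped widely.

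The other neuroblast and immature neuron genes in ApoE4 cortex were lower in 6 and higher in 2 of 19 tested, by adjusted p. The lower ones included Stmn1, a microtubule-destabilising protein (-0.26), Fxyd7, a regulator of the sodium pump (-0.27), Neurod2 (-0.27) and Neurod6 (-0.24), neuronal helix-loop-helix factors, and Tubb3, the neuronal beta-tubulin (-0.25). The higher ones were Ccnd2, cyclin D2 (0.24), and Ncam1, the neural cell adhesion molecule (0.11). Most of the genes that fell are also expressed in mature cortical neurons. Of 24 niche signals 9 passed as higher and none as lower, the 6 of smallest p being the neurotrophin receptor Ntrk2 (0.25), the vascular receptor Kdr (0.52), the BMP receptor Bmpr1a (0.31), the growth factor Igf2 (1.23), the insulin-like growth factor receptor Igf1r (0.31) and Reln (0.30), the secreted guide of neuronal layering. Pcna, the replication clamp, was the single cell cycle gene that passed of 38, at -0.20, and Cdkn1b, the inhibitor p27, was lower by 0.19 log2 units among the partners and inhibitors of cyclin D. Sox9 (0.33) and Notch1 (0.21), genes of stem cells and astrocytes, and Dsp (1.45), the desmosomal gene desmoplakin, were higher.

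Markers of other cell types differed between the same cortices: 6 of 8 meningeal fibroblast, 5 of 7 endothelial and 4 of 10 astrocyte genes passed as higher in ApoE4. Of 9 microglial genes 5 passed as lower and 2 as higher. Of 10 oligodendrocyte precursor genes 3 passed as higher and 1 as lower, the lower one being Bcas1, a gene of newly forming oligodendrocytes (-0.96). Counting those that did not pass, 9 of the 10 were higher in ApoE4, with a list median of 0.17 log2 units, and Bcas1 alone was lower. Their sum went the other way, 683 to 861 CPM (median 771) in ApoE4 and 827 to 1198 CPM (median 976) in ApoE3 PBS cortices. Summed meningeal genes were 85.2 to 261 CPM (median 211) in ApoE4 PBS cortices and 74.2 to 122 CPM (median 97.8) in ApoE3 PBS cortices. Summed endothelial genes were 305 to 412 CPM (median 361) in ApoE4 and 251 to 331 CPM (median 294) in ApoE3. For astrocyte genes the sums were 4641 to 5527 CPM (median 5172) in ApoE4 and 4249 to 5654 CPM (median 4697) in ApoE3, and for microglial genes 301 to 367 CPM (median 329.9) in ApoE4 and 331 to 459 CPM (median 384) in ApoE3. No gene of these lists was at 0 in any library. Their part in the Ccnd1 and Dcx differences was not tested.

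In the hippocampus of PBS rats no member passed between genotypes, against 3.81% of 15416 genes (297 or 1.93% higher and 291 or 1.89% lower in ApoE4). With library totals alone 30.4% of calls were higher, against 50.5% with TMM, and again no member passed. Sox11 and Dcx came closest, both lower in 8 of 8 ApoE4 libraries relative to the ApoE3 median. Sox11 ranged over 2.66 to 4.67 CPM (median 3.84) in ApoE4 and 3.91 to 6.57 CPM (median 4.82) in ApoE3, with an edgeR log2 difference of -0.36 (SE 0.11, 95% interval -0.60 to -0.13, adjusted p = 0.0736). Dcx had an edgeR log2 difference of -0.16 (SE 0.07, 95% interval -0.29 to -0.02, adjusted p = 0.211), and its ranges overlapped. Without the libraries that stood apart Sox11 differed by -0.29 (SE 0.15, adjusted p = 0.492) and Dcx by -0.17 (SE 0.08, adjusted p = 0.379). The edgeR difference of Igfbpl1, 0.97 (SE 0.51, 95% interval -0.06 to 2.00, adjusted p = 0.351), was -0.23 without those libraries. Mki67 and Ccnd1 had differences of 0.0023 (SE 0.13, 95% interval -0.27 to 0.27, adjusted p = 0.997) and 0.12 (SE 0.07, 95% interval -0.01 to 0.26, adjusted p = 0.375). From the pathway lists Dsp (1.73), Plk5, a polo-like kinase of the brain (0.55), the channel Trpc6 (0.35), Sox2 (0.24), the neuronal factor Nhlh1 (0.55) and Ntrk2 (0.15) passed as higher in ApoE4 and Fxyd7 (-0.27) as lower. No cell cycle gene passed of 37 tested.

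**Figure D3:**
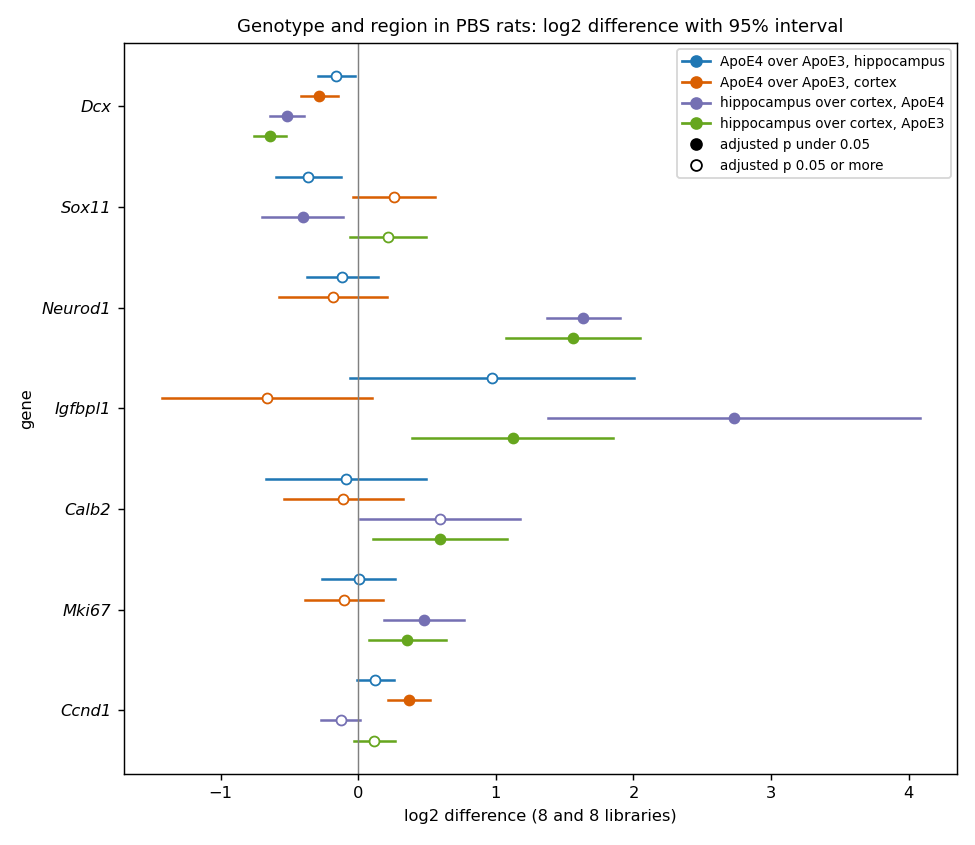
Log2 difference of each gene in PBS rats (horizontal axis) with its 95% interval from edgeR, for ApoE4 over ApoE3 in each region and for hippocampus over cortex in each genotype; filled circles mark adjusted p under 0.05. Dcx and Ccnd1 are the genes with a filled circle between genotypes, in cortex, and Neurod1 and Igfbpl1 lie farthest to the right for hippocampus over cortex. The values of Igfbpl1 for hippocampus over cortex are a description in both genotypes, whatever their circles, since the gene entered those fits through the hippocampal libraries.

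The plot of genotype and region differences puts both contrasts of PBS rats on 1 scale. Hippocampus was set against cortex in PBS rats to describe where each gene is used. Neurod1 and Mki67 were higher in the hippocampus in both genotypes, and Dcx was lower. Of the 6 members other than Igfbpl1, 4 passed in each genotype, 2 higher and 2 lower in ApoE4 and 3 higher and 1 lower in ApoE3. Among all genes 49.2% of 14835 passed in ApoE4, 24.8% as higher and 24.4% as lower, and 49.3% of 14981 in ApoE3, 24.3% as higher and 25.1% as lower, so a call between regions says little by itself.

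Neurod1 ranged over 22.0 to 34.4 CPM (median 30.3) in hippocampus and 7.48 to 13.6 CPM (median 8.84) in cortex of ApoE4 PBS rats, with no overlap. In ApoE3 PBS rats it ranged over 25.6 to 50.1 CPM (median 30.5) in hippocampus and 5.61 to 27.7 CPM (median 9.16) in cortex, where the cortex of rat 41 reached into the hippocampal range. The edgeR log2 differences were 1.63 (SE 0.13, 95% interval 1.37 to 1.90, adjusted p = 3.36e-09) and 1.56 (SE 0.23, 95% interval 1.07 to 2.04, adjusted p = 1.33e-05) for ApoE4 and ApoE3. Dcx, although a marker of new neurons of the dentate gyrus, was lower in hippocampus than in cortex, with edgeR log2 differences of -0.52 (SE 0.06, 95% interval -0.64 to -0.39, adjusted p = 7.84e-07) in ApoE4 and -0.64 (SE 0.06, 95% interval -0.76 to -0.53, adjusted p = 8.40e-09) in ApoE3, and the regions did not overlap in either genotype. How many of all genes separate the regions without overlap, as Dcx did and Neurod1 in ApoE4, was not counted. Doublecortin is also found in immature neurons in layer II of the rat's cortex, which lie outside the neurogenic zones. The part of such cells in the Dcx difference was not tested.

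Igfbpl1 is given apart, because in ApoE4 its cortical counts did not pass the filter on low counts by themselves. It entered that fit through the hippocampal libraries, which favours a difference. In ApoE3 PBS rats it had 2 to 20 counts per cortical and 14 to 61 per hippocampal library, so the same holds there. Its values in both genotypes are thus a description. Igfbpl1 differed by 2.73 (SE 0.64) in ApoE4 and 1.12 (SE 0.35) in ApoE3 on the log2 scale of edgeR. Without the libraries that stood apart, which include the hippocampi of rats 7 and 26, the difference was 1.17 (SE 0.34) in ApoE4 and 0.76 (SE 0.35) in ApoE3. Ependymal genes summed to 25.4 to 97.3 CPM (median 35.7) in hippocampus and 19.0 to 27.3 CPM (median 22.6) in cortex of ApoE4 PBS rats, and their part in this was not tested. Mki67 ranged over 6.65 to 10.3 CPM (median 9.20) in hippocampus and 4.03 to 10.00 CPM (median 6.62) in cortex of ApoE4 PBS rats. In ApoE3 PBS rats it ranged over 6.53 to 11.1 CPM (median 9.54) in hippocampus and 4.94 to 9.03 CPM (median 6.85) in cortex. The regions overlapped in both genotypes, and the edgeR log2 differences were 0.48 (SE 0.14, 95% interval 0.18 to 0.77, adjusted p = 0.00843) and 0.36 (SE 0.13, 95% interval 0.08 to 0.64, adjusted p = 0.0332) for ApoE4 and ApoE3.

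The cell cycle genes as a list did not move as Mki67 did. In ApoE4 4 of 37 tested passed as higher and 15 as lower in hippocampus, and in ApoE3 2 of 36 as higher and 16 as lower. Tpx2, a spindle assembly factor, was lower by 1.91 log2 units in ApoE4 and 1.97 in ApoE3. Top2a, the topoisomerase of dividing cells, fell by 0.91 and 0.81, and Mcm4, a subunit of the replicative helicase, was higher by 0.49 and 0.46. Sox11 passed as lower in ApoE4, at -0.40 (SE 0.14, 95% interval -0.70 to -0.11, adjusted p = 0.0238), and was -0.37 (SE 0.16, adjusted p = 0.076) without the libraries that stood apart. In ApoE3 it was 0.22 (SE 0.13, 95% interval -0.06 to 0.49, adjusted p = 0.185), of the opposite sign. Calb2 passed in ApoE3, at 0.59 (SE 0.23, 95% interval 0.11 to 1.08, adjusted p = 0.0405), but not with DESeq2 (adjusted p = 0.0629) or without sex as a covariate (adjusted p = 0.0554). In ApoE4 it was 0.59 (SE 0.28, 95% interval 0.01 to 1.17, adjusted p = 0.0845), and 0.13 (SE 0.12, adjusted p = 0.394) without the libraries that stood apart. Ccnd1 did not pass, at -0.13 (SE 0.07, 95% interval -0.27 to 0.02, adjusted p = 0.131) and 0.12 (SE 0.07, 95% interval -0.03 to 0.27, adjusted p = 0.181) for ApoE4 and ApoE3.

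The genes each member varied with were described over the 32 libraries of a region by Pearson's r of log2 CPM, after the mean of each genotype, treatment and sex group was subtracted. Points are libraries that share depth, dissection and RNA yield, genes are not independent, and no p is given. In hippocampus, among 12168 genes, Igfbpl1 was most like Cfap126, a cilia and flagella protein that is itself in the ependymal list, Prdm16, a transcription factor, and Vat1l, each with r = 0.936. The r with a list, here and below, is that with the mean log2 CPM of its genes after the same subtraction. For Igfbpl1 it was 0.874 with ependymal genes and 0.87 with choroid plexus genes, which share no gene with the ependymal list. Other lists were also high: 0.832 with Cajal-Retzius cell genes, 0.717 with partners and inhibitors of cyclin D, 0.657 with mature granule cell genes and 0.617 with niche signals. Igfbpl1 had an r of -0.179 with the other neuroblast genes and 0.015 with Mki67.

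Calb2 in hippocampus was most like Cacna2d2 (r = 0.837), Ecel1 (0.808) and Gpx3 (0.798). Cacna2d2 is a calcium channel subunit and is itself in the marker list of Cajal-Retzius cells. The r of Calb2 was 0.789 with the thalamic and habenular list, 0.698 with the Cajal-Retzius list and 0.402 with the medial habenula list. With ependymal and ventricular-zone interneuron precursor genes it was 0.581 and 0.557. Ccnd1 was most like Gjb6 (0.90), the astrocyte connexin 30 and itself in the astrocyte list, Slc7a11 (0.878), the cystine transporter, and Casp8 (0.859). The r of Ccnd1 was 0.797 with endothelial, 0.717 with meningeal and 0.688 with astrocyte genes, against 0.50 with the cell cycle list and 0.193 with Mki67. In cortex Ccnd1 had an r of 0.741 with astrocyte, 0.702 with oligodendrocyte precursor, 0.675 with endothelial and 0.671 with microglial genes.

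Dcx in hippocampus was most like Slc6a11 (0.797), the GABA transporter GAT-3, Usp29 (0.732) and Sema4g (0.704), a semaphorin, and its r with the other neuroblast genes was -0.572. Dcx had an r of 0.27 with Mki67 in hippocampus and 0.516 in cortex. Mki67 was most like Mpdz (0.816), Ryr2 (0.781), the ryanodine receptor, and Dnah9 (0.78), an axonemal dynein, with an r of 0.388 with the cell cycle list and 0.593 with astrocyte genes in hippocampus. In cortex the r of Mki67 was 0.607 with the cell cycle list and 0.439 with astrocyte genes. Neurod1 was most like Babam2 (0.73), Fam58b (0.73) and Cope (0.718) in hippocampus. Its r with the other neuroblast genes was 0.542 in hippocampus and 0.462 in cortex. With the cerebellar granule cell list its r in cortex was 0.784. Sox11 was most like Stk10 (0.788), a kinase, Greb1 (0.779) and Ccdc117 (0.76). Between members, the highest r was 0.524 in hippocampus, of Igfbpl1 and Calb2, and 0.667 in cortex, of Neurod1 and Calb2, both of which were highest there in rat 41.

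The plot of members against marker sums shows 3 genes, each in a region where its single highest library was among those that stood apart.

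**Figure D4:**
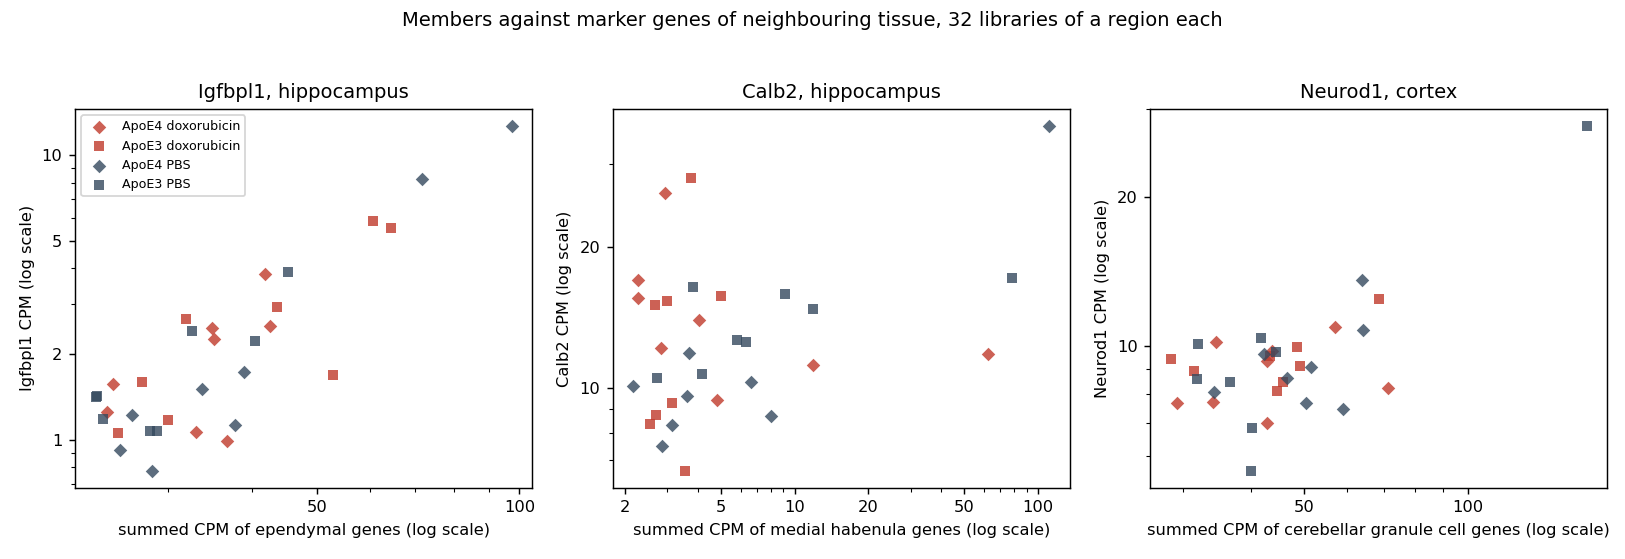
CPM of Igfbpl1 and Calb2 in 32 hippocampal libraries and of Neurod1 in 32 cortical libraries (vertical axes, log scale) against the summed CPM of ependymal, medial habenula and cerebellar granule cell genes (horizontal axes, log scale), by genotype (diamond ApoE4, square ApoE3) and treatment (colour). Igfbpl1 is high where ependymal genes are high (12.6 CPM in rat 7), the highest Calb2 (36.2 CPM) and the highest cortical Neurod1 (27.7 CPM) are single libraries at the far right, and the Calb2 values of 28.0 and 26.0 CPM in rats 52 and 29 come from libraries with few habenula counts.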

How the data were processed

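Hippocampal and cortical RNA of 32 rats was sequenced from 64 libraries made with a NEBNext Ultra II RNA kit, per the labels' protocols. The authors deposited raw counts per gene for each region and genotype. Reads were aligned with STAR 2.5.2b and compared with DESeq2, per the submitters' processing notes. The authors' deposited tables of doxorubicin against PBS hold a mean normalised signal, a log2 fold change, and p-values with adjusted values for each gene. The counting tool, genome build, annotation and strand setting are not given in the sources used here, so reads of a gene and an antisense partner cannot be told apart.

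The count tables hold 32644 rows, of which 92 are ERCC spike-ins, left out (0.932% to 2.44% of a library's counts, median 1.35%). Symbols came from the authors' deposited tables. Counts were tested with edgeR 4.0.16 (filterByExpr, TMM, quasi-likelihood F-test, sex as covariate, Benjamini-Hochberg adjustment over all tested genes, threshold 0.05) in R 4.3.3 with limma 3.58.1. DESeq2 1.42.0 was an alternative. Replicates are separate rats. The steps were tested on simulated data, in which 100 genes were changed by 0.5 and 100 by 1 log2 unit in each doxorubicin comparison. Genes of low count were not among those changed. Of those changed by 0.5, 64% were recovered in ApoE4 hippocampus, 76% in ApoE3 hippocampus, 83% in ApoE4 cortex and 86% in ApoE3 cortex. With that many changed genes the adjusted threshold is easier to pass, so these shares do not hold for a single changed gene.

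The members, lists and tests were chosen with earlier results of these data known. Named are all members, list genes that passed (at most 6 of smallest p in each direction), up to 3 of smallest p where none passed, and for each member the 3 genes most like it. Of the list genes that passed, 1 that this rule would name is not reported here. Marker lists of medial habenula, cerebellar granule cells and astrocytes were added after seeing the data, as was the fit without libraries that stood apart. The hippocampus and cortex of a rat share its number in the labels, which pairs them, and the r of their deviations ran between -0.158 and 0.266. Alternatives were other scalings, no filter on low counts, DESeq2, no sex covariate, 1 fit over a region, the rat as a block, and leaving out each library.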

Additional observations from a re-analysis of the deposited data

Results flagged for a closer look

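Of 56 sets of 8 libraries (7 genes in 8 groups), 8 held a library whose gap to the nearest other library exceeded 0.526 of the group's range. Among independent sets of normally distributed values, chance flags about 1 in 20. CPM values were not transformed, the sets share libraries, and each flagged library was the highest of its group, so that rate need not hold here. Calb2 stood out in 4 groups: 26.0 CPM in rat 29 of the ApoE4 doxorubicin hippocampi, 36.2 CPM in rat 26 of the ApoE4 PBS hippocampi, 28.05 CPM in rat 52 of the ApoE3 doxorubicin hippocampi, and 23.6 CPM in rat 41 of the ApoE3 PBS cortices. Neurod1 stood out at 50.1 CPM in rat 45 of the ApoE3 PBS hippocampi, at 12.4 CPM in rat 72 of the ApoE3 doxorubicin cortices and at 27.7 CPM in rat 41 of the ApoE3 PBS cortices. Igfbpl1 stood out at 3.89 CPM in rat 37 of the ApoE3 PBS hippocampi. Of these libraries, all but the hippocampus of rat 52 were among the 14 that stood apart by choroid plexus, habenular or cerebellar genes, whose part in these values was not tested.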

How the results depend on the processing

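No value of a member that passed the test changed sign under any alternative. Between genotypes Dcx and Ccnd1 in cortex passed under each of the 6 alternatives run. Counts of genes called after doxorubicin moved with the tool: DESeq2 called 1 in ApoE4 hippocampus, 160 in ApoE3 hippocampus, 35 in ApoE4 cortex and 77 in ApoE3 cortex, against 0 each by edgeR. DESeq2 called 6 and 1 genes for the genotype by treatment term in hippocampus and cortex and 123 for the region by treatment term in ApoE3. Without a filter on low counts edgeR called 4 in ApoE4 cortex, 7 in ApoE3 cortex and 40 for that term; ApoE3 cortex gave 8 with library totals and 10 in 1 fit over 32 libraries. With the rat as a block, which pairs the regions, the ApoE3 term gave 9, and no member's call changed. Without the libraries that stood apart 280 genes differed between genotypes in hippocampus, against 588. Leaving out each library gave 0 to 1 calls in ApoE4 cortex and 0 to 2 in ApoE3 cortex. The cause of these shifts was not tested.

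Log2 values that changed sign had not passed. Without the libraries that stood apart they were, for doxorubicin, 0.48 (Igfbpl1), -0.016 (Neurod1) and -0.020 (Sox11) in ApoE4 hippocampus, 0.0020 (Calb2), 0.0046 (Ccnd1) and 0.028 (Neurod1) in ApoE3 hippocampus, and 0.12 (Calb2), -0.036 (Ccnd1) and 0.14 (Neurod1) in ApoE3 cortex. For the genotype by treatment term they were 0.14 (Igfbpl1), 0.14 (Mki67), -0.045 (Neurod1) and -0.089 (Sox11) in hippocampus and -0.25 (Neurod1) in cortex. Between genotypes they were -0.23 (Igfbpl1) and -0.10 (Mki67) in hippocampus, and 0.22 (Calb2) and 0.22 (Neurod1) in cortex. For the region by treatment term they were 0.41 (Igfbpl1) and -0.017 (Sox11) in ApoE4, and -0.0078 (Calb2), 0.059 (Ccnd1), 0.0076 (Dcx) and -0.043 (Neurod1) in ApoE3. Mki67 was 0.0096, 0.0012 and 0.011 for the hippocampal genotype by treatment term with library totals, DESeq2 and no sex covariate, and with library totals -0.029 between genotypes in hippocampus and -0.0026 for the region by treatment term in ApoE4. Dcx was 0.0031, 0.017 and 0.0029 for the region by treatment term in ApoE3 with DESeq2 size factors, no filter and DESeq2, and Calb2 was -0.082 with the replicate block.

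Leaving out each library, doxorubicin values crossed 0 between -0.044 and 0.091 (Neurod1) and -0.019 and 0.080 (Sox11) in ApoE4 hippocampus, and -0.14 and 5e-04 (Neurod1) in ApoE4 cortex. In ApoE3 hippocampus they ran between -0.27 and 0.052 (Calb2), -0.051 and 0.0036 (Ccnd1), -0.097 and 0.056 (Neurod1), and -0.099 and 4e-04 (Sox11). In ApoE3 cortex they ran between -0.25 and 0.18 (Calb2), -0.022 and 0.080 (Ccnd1), -0.088 and 0.043 (Mki67), and -0.30 and 0.17 (Neurod1). Low counts limit Igfbpl1 in cortex, where libraries held 2 to 26 counts.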
